A study of Mus musculus with 12 samples.

Results

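The genes described here encode the nuclear pore complex, measured by RNA sequencing in mouse hearts. They are the protein-coding entries of the deposited gene table whose symbol begins with Nup and a digit, together with Tpr, Ranbp2, Pom121, Ndc1, Aaas, Rae1, Sec13 and Seh1l, which gives 29 genes of the 39331 entries. The study compared 6 wild-type hearts (WT) with 6 hearts of mice carrying a Lemd2 p.L13R knock-in allele (KI), all from untreated C57BL/6N animals aged 9 months. LEMD2 is a protein of the inner nuclear membrane, and the allele puts arginine in place of leucine at amino acid 13. The labels name the tissue only as heart, without the chamber, and do not give the zygosity of the KI animals. They do not say that the samples came from separate litters, and the p-values below measure the spread between these samples.

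Nuclear pore complexes are the channels through which proteins and RNA pass between nucleus and cytoplasm, and they sit where the inner and outer nuclear membranes are fused. Rings of scaffold proteins hold the channel open, transmembrane proteins anchor it, and nucleoporins rich in phenylalanine-glycine repeats fill it and bind the transport receptors. Filaments extend to the cytoplasm and a basket reaches into the nucleus. In cells that no longer divide, such as cardiac muscle cells, scaffold nucleoporins are known as very long-lived proteins, so the transcript level and the protein level need not move together.

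The total count per library, in units of 1000000, was 38.3 to 44.6 in WT and 27.9 to 42.9 in KI. Cardiomyocyte markers (Myh6, Actn2, Ryr2, Tnnt2 and Pln) summed to between 28467 and 31980 CPM (counts per 1000000, TMM-scaled) in WT and between 24312 and 31133 CPM in KI, so the defining genes of heart muscle were abundant in all 12 libraries. Lemd2 itself fell from 27.4 ± 1.97 to 21.3 ± 2.88 CPM (SD, n = 6 each; log2 fold change -0.36, SE 0.09, adjusted p = 0.0213 in edgeR). Under scaling by library total it was at -0.21 and did not pass (adjusted p = 0.161). A gene count does not show the point substitution. The library names in the titles of KI 3, KI 4 and KI 5 share an age tag that the other KI library names lack, and these 3 libraries had the lowest totals. The titles of KI 1 and KI 2 each join 2 numbers, and the labels do not say whether material was pooled. The library name of KI 2 ends in old and that of KI 6 in new, and the labels do not say what these words mean. KI 6 also stood apart in atrial muscle genes, with Myl7, an atrial myosin light chain gene, at 144.8 CPM where the other 11 libraries had at most 0.43. Because of the tag and the totals of KI 3 to KI 5, the comparisons were also made without these 3 and with them alone.

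Expression of the pore genes differed little between the genotypes. Of the 29 genes, 28 had enough counts to be tested, and the lowest count of any of them in any library was 90. Nup62cl, a shorter relative of Nup62, had between 1 and 6 counts per library and was not tested. Nup93 was the 1 gene past an adjusted p of 0.05, and it was higher in KI. Over all 15602 genes tested, 4.41% were called higher and 4.34% lower in KI, so 1 of 28 higher and 0 of 28 lower is no larger a share than that of the table as a whole. For the count of 0 lower genes by edgeR, 1 pore gene had an unadjusted p under 0.05, and DESeq2 and voom each called 1, in both cases Ranbp2. Among all 15602 genes tested, 4023 had an unadjusted p under 0.05 in edgeR, beside 3 pore genes higher and 1 lower. The median log2 fold change of the 28 genes was 0.03, beside 0.01 for all genes tested. Of the 28, 18 were positive and 10 negative, where 52.8% of all genes tested were positive. In bulk tissue, fewer cells of a type and less RNA per cell cannot be told apart.

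The fit placed narrow bounds on most of these genes. The median of the absolute log2 fold changes was 0.06 for the pore genes and 0.13 for all genes tested. The median SE was also smaller for the pore genes, 0.07 beside 0.10, and these medians were not matched for precision. For 19 of the 28, the 95% confidence interval of the difference lay inside a 1.2-fold change in both directions. The bound farthest from 0 was that of Nup62, at -0.57 on the log2 scale. These bounds hold relative to the scaling of the libraries by the TMM method, described below.

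**Figure D1:**
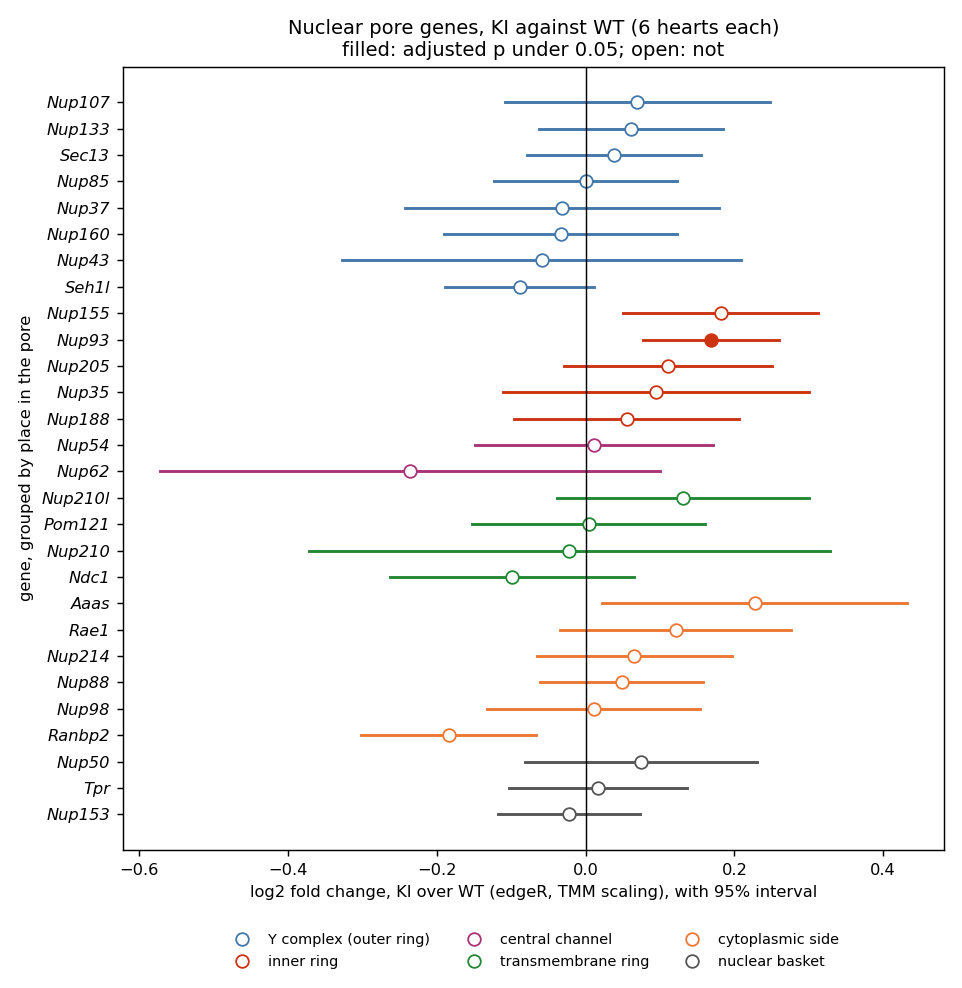
Log2 fold change of KI over WT for the 28 tested genes, with 95% confidence intervals, grouped and coloured by place in the pore; a filled point has an adjusted p under 0.05. Nup93, at 0.17, is the 1 filled point, and the 5 inner ring genes lie between 0.06 and 0.18.

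Nup93, Ranbp2 and Nup155 had the smallest p of the pore genes in edgeR, and only Nup93 of them was called. The 250 bases before the outermost RefSeq transcript start of each are shown. For Nup155 that start lies inside the gene span of the count table, so its window ends within the gene. They come from RefSeq (mouse build GRCm38.p6), plus strand, at chr8:94214314-94214563 for Nup93, at chr10:58446602-58446851 for Ranbp2 and at chr15:8109063-8109312 for Nup155. Capitals mark the E-box CACGTG, the ETS motif CCGGAAG and the CCAAT box, each searched on both strands, so that ATTGG is a CCAAT box of the minus strand.
Nup93: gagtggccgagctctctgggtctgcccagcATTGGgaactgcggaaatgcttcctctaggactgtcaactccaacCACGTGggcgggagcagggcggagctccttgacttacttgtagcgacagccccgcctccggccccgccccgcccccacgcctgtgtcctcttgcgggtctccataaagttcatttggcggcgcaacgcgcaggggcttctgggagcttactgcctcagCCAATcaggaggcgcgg
Ranbp2: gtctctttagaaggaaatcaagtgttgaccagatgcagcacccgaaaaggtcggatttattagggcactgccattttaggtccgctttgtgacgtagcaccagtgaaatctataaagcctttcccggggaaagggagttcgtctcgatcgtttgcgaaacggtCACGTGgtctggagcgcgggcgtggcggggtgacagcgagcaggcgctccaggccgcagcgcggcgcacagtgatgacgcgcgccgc
Nup155: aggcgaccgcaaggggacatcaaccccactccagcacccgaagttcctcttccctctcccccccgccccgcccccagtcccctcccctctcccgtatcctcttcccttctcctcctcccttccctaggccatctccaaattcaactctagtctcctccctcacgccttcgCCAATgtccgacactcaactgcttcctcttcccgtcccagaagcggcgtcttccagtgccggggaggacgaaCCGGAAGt

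Both Nup93 and Ranbp2 hold an E-box in this window, and Nup155 holds an ETS motif. The RefSeq table held a window for 24 of the 29 genes. The E-box was in 4 of the 24 (16.7%), namely Nup93, Ranbp2, Nup188 and Nup54, and in 6.04% of 27025 windows of all genes. The ETS motif was in 6 of 24 (25.0%), against 7.07% of all windows, and the CCAAT box in 10 of 24 (41.7%), against 34.5%. A TATA box, TATAAA, was found in 2 of 24 (8.33%), Nup160 and Ranbp2, against 12.98% of all windows. The CRE motif TGACG was in 10 of 24 (41.7%), Ranbp2 among them, against 17.8%. The NRF1 motif TGCGCA was in 4 of 24 (16.7%), against 6.67%. The GC box, GGGCGG, was in 15 of 24 (62.5%), Nup93 and Nup155 among them, against 33.0%. Capitals do not mark these motifs in the sequences shown. The windows of the pore genes were rich in G and C, with a median of 63.6% and 20.5 CG dinucleotides, beside 52.0% and 6 over all genes. The windows of all genes were not matched for this composition, so these shares cannot tell a motif apart from G and C content. The counts are of letters and do not show that a factor binds.

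The levels of the genes differed far more from each other than between genotypes. Levels are given as CPM per kilobase of merged exons, since a longer transcript collects more reads. Sec13, which also serves in the vesicle coat of the endoplasmic reticulum, was highest in WT at 29.6 ± 2.01 CPM per kilobase (SD, n = 6). Tpr, the filament protein of the nuclear basket, followed at 19.4 ± 1.16, and Nup88, a docking protein of the cytoplasmic face, at 15.2 ± 0.64 CPM per kilobase. The WT ranges of these 3 did not overlap. Ranbp2 at 11.2 ± 0.38 and Rae1 at 10.9 ± 0.52 CPM per kilobase did overlap, and Nup93 lay below both at 9.28 ± 0.34.

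At the other end stood the membrane glycoprotein gene Nup210, at 0.63 ± 0.20 CPM per kilobase in WT, and its relative Nup210l, known in mouse mainly from the testis, at 0.71 ± 0.05, with overlapping ranges. Nup62cl was lower still, at 0.03 ± 0.02 CPM per kilobase. The level of Nup210l is uncertain, because its reads are divided with Gm34865, which lies inside it on the same strand. The counts of Nup210l and Gm34865 were 168.62 and 144.25 in WT 1 and 136.75 and 121.5 in WT 6. From Nup54, at 4.75 CPM per kilobase, down to Nup160, at 2.10, each gene overlapped the next in order among the WT hearts. Read counting took in introns as well, so the length used here is shorter than the span over which reads were collected.

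**Figure D2:**
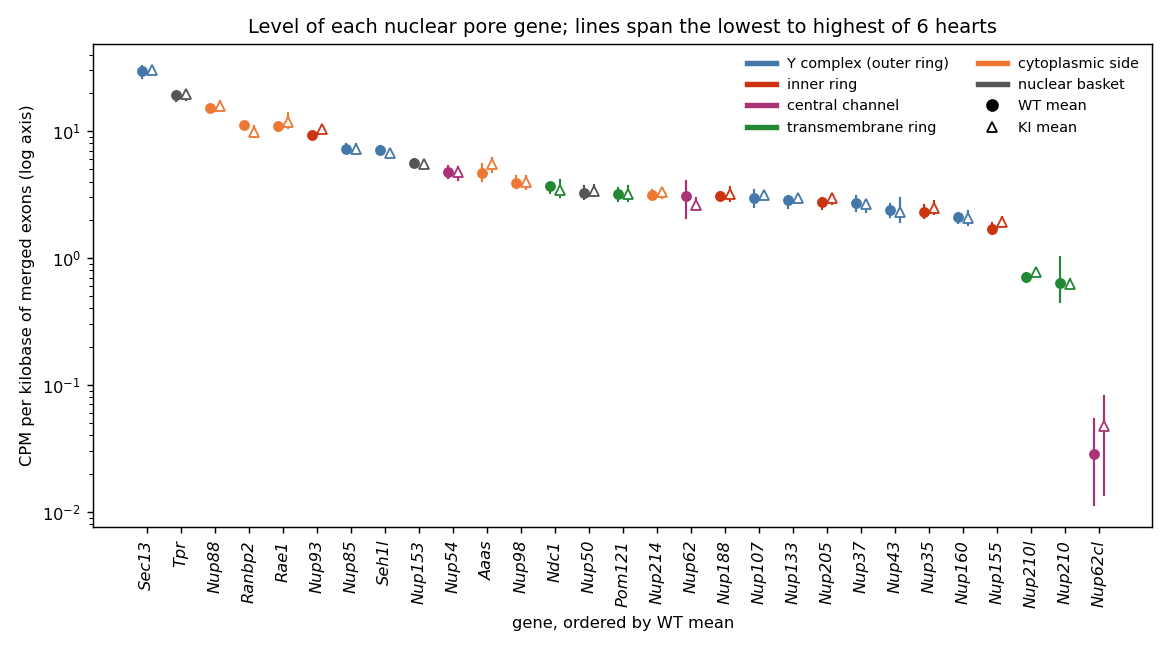
Mean level of each of the 29 genes in WT (filled circles) and KI (open triangles) in CPM per kilobase of merged exons, on a log axis; lines run from the lowest to the highest of 6 hearts. Sec13 is highest in WT at 29.6 and Nup62cl lowest at 0.03, and for most genes the 2 genotypes sit at nearly the same height. Nup62 and Nup210l share reads with a neighbour, so their levels are uncertain.

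The inner ring is the scaffold that lines the channel and links the transmembrane anchors to the central transport barrier. Its 5 genes all had positive log2 fold changes, from 0.06 to 0.18 with a median of 0.11, and 1 of 5 passed the threshold. Of all genes tested, 4.41% were called higher in KI and 52.8% had a positive log2 fold change. With KI 3 to KI 5 alone against WT, Nup188 was at -0.07 and Nup205 at 0.03, and the other inner ring genes stayed positive. Nup93 (Gene ID 71805, chr8:94214564-94328100, plus strand) encodes the linker that carries the central channel proteins. It lay between 31.1 and 33.8 CPM in WT, with a median of 32.4, and between 34.9 and 38.0 CPM in KI, with a median of 36.5. Every KI heart was above every WT heart. It was the 1 of 28 pore genes whose groups did not overlap, where the share over all genes tested was 4.36%. The rise was 12.4% (log2 fold change 0.17, SE 0.04, adjusted p = 0.0284 in edgeR, higher in 6 of 6 KI hearts). With each library left out in turn, the call held in 6 of 12 fits, and the log2 fold change was between 0.15 and 0.18 with an adjusted p between 0.0262 and 0.0766. It was lost without WT 2 (0.0766), WT 5 (0.0547), WT 6 (0.0766), KI 2 (0.0518), KI 3 (0.0671) or KI 6 (0.0532), all adjusted p from edgeR, and with no filter on low counts (adjusted p = 0.101). Without KI 3 to KI 5 the log2 fold change was 0.18 (adjusted p = 0.135 in edgeR), and with these KI hearts alone it was 0.14 (adjusted p = 0.109).

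Nup155 (Gene ID 170762, chr15:8109263-8159859, plus strand) is an inner ring scaffold gene whose loss of function is known to cause atrial fibrillation in people and mice. It lay between 12.4 and 15.1 CPM in WT, with a median of 13.4, and between 14.5 and 17.1 CPM in KI, with a median of 15.0. All KI hearts were above the WT mean, but WT 4, the highest WT heart, lay inside the KI range. Its log2 fold change of 0.18 (SE 0.06) had an adjusted p of 0.0785 in edgeR, and it passed the threshold without WT 4 (0.22, adjusted p = 0.0377) and in voom (0.19, adjusted p = 0.0407). That was 1 of 12 edgeR fits with a library left out, and the adjusted p reached 0.151 without WT 2. It did not pass in edgeR without KI 3 to KI 5 (0.19, adjusted p = 0.258) or with these alone (0.15, adjusted p = 0.175).

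The remaining inner ring genes did not pass the threshold. Nup205, which encodes a large scaffold subunit, lay between 15.5 and 19.1 CPM in WT (median 18.0) and between 17.1 and 20.4 in KI (median 19.5), with ranges that overlap (log2 fold change 0.11, SE 0.07, adjusted p = 0.303). Its relative Nup188 was at 0.06 (SE 0.07), and Nup35, which binds the pore membrane, at 0.09 (SE 0.10) on the log2 fold change scale. The summed level of the inner ring genes ran from 81.9 to 89.3 CPM in WT and from 86.8 to 99.9 CPM in KI, with KI 2 highest.

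**Figure D3:**
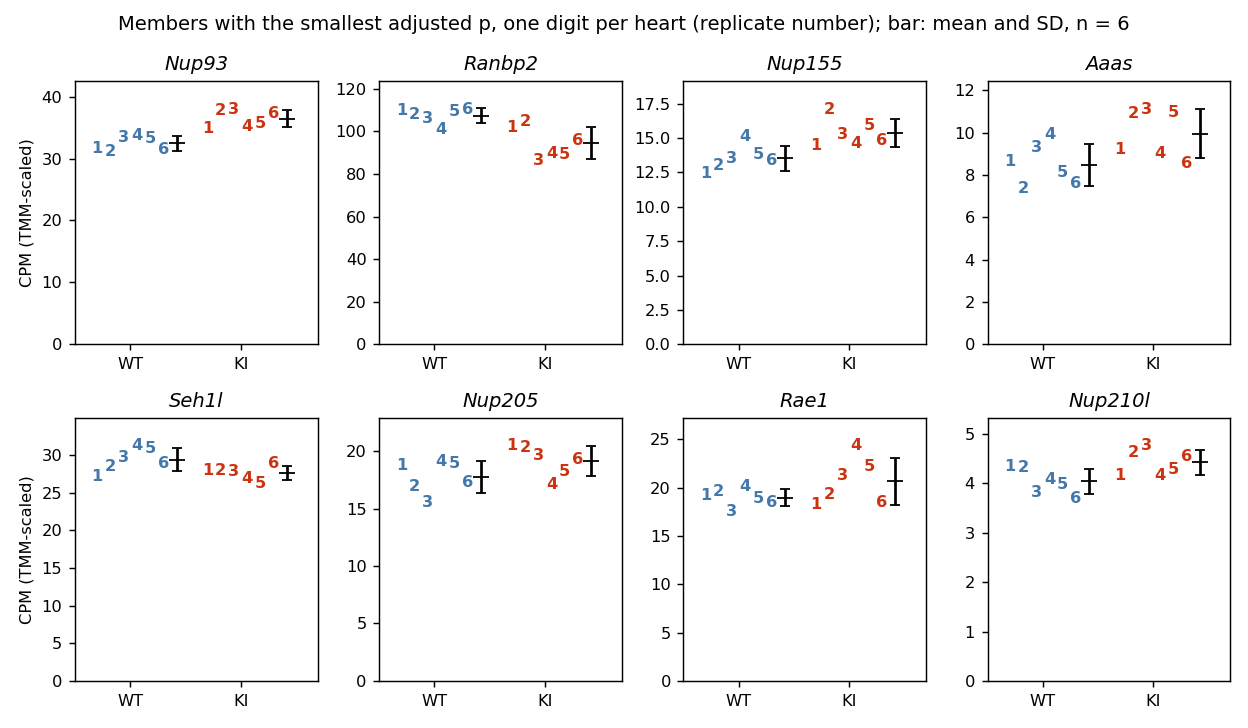
TMM-scaled CPM of the 8 genes with the smallest adjusted p, with 1 digit per heart giving its replicate number, and the mean and SD of the 6 hearts of each genotype beside them. The ranges of WT and KI separate for Nup93, 31.1 to 33.8 against 34.9 to 38.0 CPM, and overlap for the other 7.

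On the cytoplasmic side, export cargo is released and import receptors are loaded, and 0 of 6 genes were called by edgeR (2 had an unadjusted p under 0.05, Aaas and Ranbp2, and DESeq2 and voom each called 1). Of the 15602 genes tested, 4023 had an unadjusted p under 0.05 in edgeR. Ranbp2 (Gene ID 19386, chr10:58446852-58494155, plus strand) encodes the giant filament protein NUP358, which binds Ran and the SUMO-modified RanGAP protein. It lay between 101 and 110 CPM in WT, with a median of 109, and between 86.5 and 105 CPM in KI, with a median of 92.5. KI 1 and KI 2 overlapped with WT hearts, and the other 4 KI hearts were below all of them. The log2 fold change of -0.18 (SE 0.05, adjusted p = 0.0516 in edgeR, lower than the WT mean in 6 of 6 KI hearts) did not pass the threshold.

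The position of Ranbp2 depended on which KI hearts were used. The mean of KI 3 to KI 5 was 88.3 CPM and that of KI 1, KI 2 and KI 6 was 101 CPM. With KI 3 to KI 5 alone against WT the log2 fold change was -0.30 (adjusted p = 0.00730), and with these 3 left out it was -0.09 and not called. With KI 3 to KI 5 alone, 1 of 28 pore genes was called higher and 2 lower, beside 12.4% of all genes tested. With these 3 left out, 0 pore genes were called, beside 0.563% of all genes tested. DESeq2 (-0.19, adjusted p = 0.0217) and voom (-0.23, adjusted p = 0.0123) called Ranbp2 over all 12 hearts. With each library left out in turn, edgeR called it in 3 of 12 fits, those without WT 4, KI 1 or KI 2. WT 4 was its lowest WT heart, and KI 1 and KI 2 were its highest KI hearts. The adjusted p in these 12 fits was between 0.0278 (without KI 2) and 0.121 (without WT 6). Ranbp2 was not called under scaling by library total or with no filter on low counts. Whether the KI subsets differ from each other was not tested. Rangap1, from the transport list given below, encodes the partner of RANBP2 at the pore and was at 0.21 on the log2 fold change scale (SE 0.09, adjusted p = 0.159 in edgeR), which did not pass.

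Aaas (Gene ID 223921, chr15:102338247-102350759, minus strand) encodes aladin, the nucleoporin that is mutated in human Allgrove syndrome. It lay between 7.36 and 9.89 CPM in WT, with a median of 8.37, and between 8.53 and 11.1 CPM in KI, with a median of 10.0. All 6 KI hearts were above the WT mean, but the ranges overlap, and the log2 fold change of 0.23 (SE 0.10) had an adjusted p of 0.150. Its 95% interval ran from 0.02 to 0.43.

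Rae1 (Gene ID 66679, chr2:173000116-173015739, plus strand), whose product works in messenger RNA export together with NUP98, spread more among KI hearts than among WT hearts. It lay between 17.5 and 20.1 CPM in WT (median 19.1) and between 18.3 and 24.3 CPM in KI (median 20.3). KI 3, KI 4 and KI 5 were the 3 highest of all hearts, with a mean of 22.6 CPM, beside 18.7 CPM in KI 1, KI 2 and KI 6. Over all hearts the log2 fold change was 0.12 (SE 0.07, adjusted p = 0.312), with KI 3 to KI 5 alone 0.24 (adjusted p = 0.0387), and without them -0.02 (adjusted p = 0.879). With KI 3 to KI 5 alone, 12.4% of all genes tested were called. Nup214 (0.07, SE 0.06), Nup88 (0.05, SE 0.05) and Nup98 (0.01, SE 0.07), all parts of the export platform, were close to 0 on the log2 fold change scale.

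**Figure D4:**
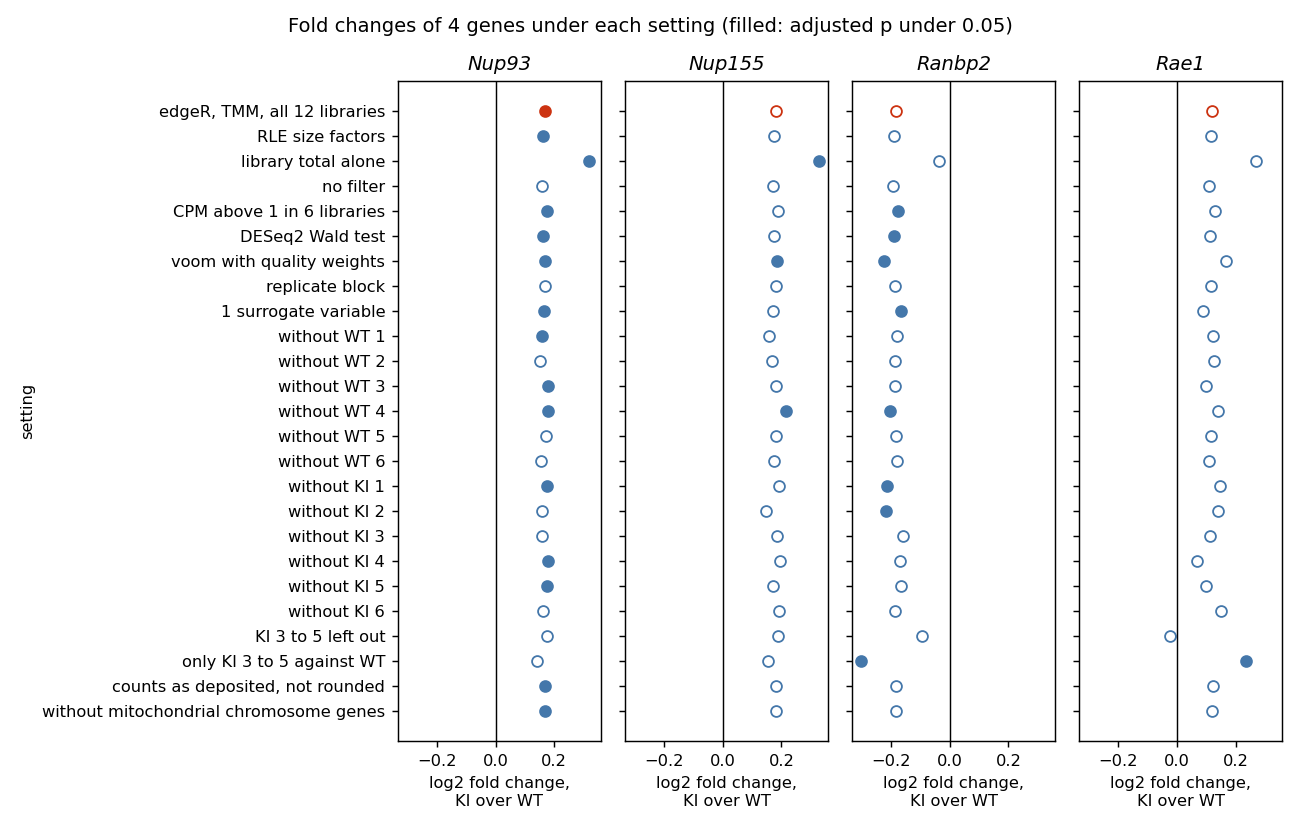
Log2 fold change of KI over WT for Nup93, Nup155, Ranbp2 and Rae1 under each way of processing the counts, 1 line per setting; filled points have an adjusted p under 0.05. Nup93 stays between 0.14 and 0.32 in all settings, whereas Ranbp2 and Rae1 move with KI 3 to KI 5, Ranbp2 from -0.09 without them to -0.30 with them alone.

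The outer rings are built from the Y complex, the scaffold that is also needed to build new pores. None of its 8 genes was called by edgeR, 0 had an unadjusted p under 0.05, and DESeq2 and voom called 0. Their log2 fold changes ran from -0.09 to 0.07 with a median of -0.02. Seh1l (Gene ID 72124, chromosome 18), which is shared with a complex that signals amino acid supply, had the smallest p of them. It lay between 27.1 and 31.2 CPM in WT (median 29.3) and between 26.3 and 28.9 in KI (median 27.8), with a log2 fold change of -0.09 (SE 0.05, adjusted p = 0.250). Its ranges overlap, with 6 of 6 KI hearts below the WT mean.

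Scaffold genes of the outer rings were otherwise close to level. Nup107 was at 0.07 (SE 0.08), Nup133 at 0.06 (SE 0.06), Nup160 at -0.03 (SE 0.07) and Sec13 at 0.04 (SE 0.05), as log2 fold changes. Nup85 had 16.0 ± 0.99 CPM in WT and 16.0 ± 0.90 CPM in KI (SD, n = 6 each), and its 95% interval ran from -0.12 to 0.12. Less abundant and less tightly bounded were Nup37, at 3.70 ± 0.43 CPM in WT and 3.63 ± 0.27 in KI, and Nup43, at 3.07 ± 0.35 and 2.94 ± 0.50 CPM.

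The nuclear basket organizes chromatin and messenger RNA export at the inner face. Its 3 genes were not called by edgeR (0 at an unadjusted p under 0.05, and 0 in DESeq2 and voom). Tpr, the most abundant pore gene per library, was at 148 ± 8.91 CPM in WT and 150 ± 9.64 CPM in KI (log2 fold change 0.02, SE 0.06), a difference smaller than the SD of either group. Nup153, which holds the basket to the pore, was at 34.2 ± 1.33 and 33.6 ± 1.48 CPM (-0.02, SE 0.04). The import cofactor gene Nup50 was at 15.8 ± 1.63 and 16.6 ± 1.14 CPM (0.07, SE 0.07).

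Transmembrane nucleoporins anchor the complex to the envelope in which LEMD2 also resides, and 0 of 4 were called by edgeR (0 at an unadjusted p under 0.05, and 0 in DESeq2 and voom). Ndc1, which recruits aladin to the pore, was at 17.0 ± 1.03 CPM in WT and 15.8 ± 1.85 in KI (-0.10, SE 0.08, adjusted p = 0.445). With KI 3 to KI 5 alone against WT it was lower (-0.25, adjusted p = 0.0459), and without them it was at 0.02. In the fit with KI 3 to KI 5 alone, 12.4% of all genes tested were called. Pom121 was at 17.7 ± 1.45 and 17.7 ± 1.68 CPM (log2 fold change 0.00, SE 0.07). Nup210, which mouse muscle precursors need to differentiate, was at 4.44 ± 1.40 and 4.38 ± 0.34 CPM, and its wide spread in WT came from WT 4 at 7.20 CPM, where the other 5 WT hearts had at most 4.27.

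Nup210l was at 4.04 ± 0.26 CPM in WT (3.70 to 4.33, median 4.03) and 4.42 ± 0.26 CPM in KI (4.15 to 4.76, median 4.42), and all KI hearts were above the WT mean (0.13, SE 0.08, adjusted p = 0.314). The ranges overlap. This value is uncertain, because Gm34865 lies inside the gene on the same strand and its count was 87.6% of that of Nup210l, with reads divided between them.

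The central channel holds the repeat-rich proteins that form the barrier. Nup62 (Gene ID 18226, chromosome 7) had the widest relative spread in WT after Nup210 among the 28 tested genes. It ran from 5.64 to 10.9 CPM in WT and from 6.80 to 8.11 CPM in KI. WT 3 and WT 4 were below every KI heart, and WT 1, WT 2 and WT 5 above every KI heart, and the log2 fold change was -0.24 (SE 0.16, adjusted p = 0.368). Its reads are shared with Il4i1b, whose span overlaps almost all of Nup62 on the same strand, and the counts of the pair ran side by side in each library, 383.5 and 392 in WT 1 and 221.5 and 231.5 in WT 3. Nup54, its partner in the channel, was at 11.2 ± 1.01 and 11.3 ± 0.86 CPM (0.01, SE 0.07). A further partner, NUP58, is listed in the table as Nupl1, outside the name rule, and was at 34.7 ± 0.82 CPM in WT and 34.1 ± 5.07 in KI (-0.03, SE 0.08).

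The summed level of the pore genes ran from 688 to 732 CPM in WT and from 671 to 749 CPM in KI. KI 2 was the highest, with 24 of 28 genes above the WT mean, and WT 5 came next with 22. WT 6 had 5 of 28 above that mean and the other libraries between 10 and 18. KI 2 was also the library with the highest sum of the cycling cell markers Mki67, Top2a, Ccnb1, Cdk1 and Birc5, at 72.4 CPM. That sum ran from 9.26 to 30.4 CPM in WT and from 27.0 to 72.4 CPM in KI. In edgeR 4 of 5 of these markers were called higher, beside 4.41% of all genes tested. Fibroblast markers had 2 of 5 called higher, Col1a1 and Postn, with sums of 529 to 613 CPM in WT and 615 to 1121 CPM in KI. The others, Pdgfra (adjusted p = 0.348 in edgeR), Tcf21 (0.0776) and Dcn (0.0703), were not called. Leukocyte, endothelial and mural markers had 0 of 5 called each by edgeR, with 3, 0 and 0 at an unadjusted p under 0.05. Such a p was found for 4023 of the 15602 genes tested. The leukocyte markers were Ptprc, Csf1r, Adgre1, Cd68 and C1qa. The endothelial ones were Pecam1, Cdh5, Kdr, Tie1 and Fabp4, and the mural ones Rgs5, Kcnj8, Pdgfrb, Acta2 and Myh11. Of the 5 cardiomyocyte markers, Pln was called lower (-0.30, SE 0.07, adjusted p = 0.0218 in edgeR), and Ryr2 was at -0.22 (SE 0.07, adjusted p = 0.0796). Myh6 and Tnnt2 were each at -0.11 (adjusted p = 0.424 and 0.297). Actn2 went the other way, at 0.16 (SE 0.07, adjusted p = 0.171). Of 5 atrial muscle markers 2 were tested and 1, Nppa, was called higher, with 35.2 to 377 CPM in WT. It was at 361 CPM in KI 1 and 195 CPM in KI 2, and between 1257 and 1836 CPM in KI 3 to KI 6. Myl4 was at 223 CPM in KI 6 and between 3.08 and 5.31 CPM in the other 11 libraries, and Sln was at 52.4 CPM in KI 6 and at most 0.20 CPM elsewhere. Bmp10 was near 0 in all 12. Without KI 6 the log2 fold change of Nup93 was 0.16 (adjusted p = 0.0532 in edgeR). The part of these cell types in the values of Nup93, Nup155 and Aaas was not tested.

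The direction of many pore genes depended on how libraries were scaled. Genes of the mitochondrial chromosome took 34.0% to 40.4% of the counts in WT and 30.9% to 33.9% in KI. As a share of all counts, the pore genes held 0.0612% to 0.0705% in WT and 0.0717% to 0.0763% in KI, which do not overlap. As a share of the counts outside the mitochondrial chromosome they held 0.103% to 0.110% in WT and 0.105% to 0.114% in KI, which do. Under scaling by library total alone, 8 of 28 pore genes were called higher and 0 lower, with a median log2 fold change of 0.18, but the median of all genes tested was then 0.16 and 20.2% of all genes were called. The 8 were Aaas, Nup133, Nup155, Nup205, Nup88, Nup93, Sec13 and Tpr. Under TMM scaling those medians were 0.03 and 0.01.

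The receptors that carry cargo through the pore were described from a second list. This list of 47 other transport genes (importins, exportins, the Ran cycle, pore SUMO enzymes and pore genes outside the name rule) had 45 tested, of which 1 was called higher and 3 lower in KI, with a median log2 fold change of -0.02. That is 8.89% of the list, beside 8.75% of all genes tested in both directions together. DESeq2 called 1 higher and 4 lower, and voom 1 and 7. All 4 called by edgeR were importins, from 17 importin genes tested. The exportins and export receptors (10 tested), the Ran cycle (7), the SUMO enzymes (4) and the further pore genes (7) had 0 called by edgeR, with 3, 1, 0 and 1 at an unadjusted p under 0.05. Such a p was found for 4023 of all 15602 genes tested.

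Kpna1 and Kpna6 encode importin alpha adaptors, which hold cargo with a classical nuclear localization signal. Kpna1 fell from 127 ± 8.60 to 108 ± 9.46 CPM (SD, n = 6 each; log2 fold change -0.23, SE 0.07, adjusted p = 0.0404 in edgeR). Kpna6 fell from 94.2 ± 5.63 to 82.6 ± 5.25 CPM (-0.19, SE 0.05, adjusted p = 0.0468). Their shared receptor Kpnb1 was at 132 CPM in both genotypes (0.00, SE 0.06). Ipo13, a receptor that also works in export, fell from 72.3 ± 6.85 to 60.2 ± 4.56 CPM (-0.26, SE 0.07, adjusted p = 0.0336), and Ipo4, which imports histones, rose from 32.2 ± 1.43 to 37.4 ± 2.53 CPM (0.22, SE 0.05, adjusted p = 0.0250). Each moved the same way in 6 of 6 KI hearts, and for each the WT and KI ranges overlap.

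These calls were near the threshold. Among fits with each library omitted in turn, Kpna1 was called in 3 of 12 (adjusted p up to 0.0970, without WT 5), Kpna6 in 2 (up to 0.112, without WT 5), Ipo13 in 4 (up to 0.0773, without WT 6) and Ipo4 in 8 (up to 0.0753, without WT 5). None of the 4 passed in edgeR without KI 3 to KI 5. Under scaling by library total the 3 lower genes missed the threshold, Kpna1 at -0.09, Kpna6 at -0.04 and Ipo13 at -0.11. Tmem33, a membrane protein gene associated with the pore, was at -0.28 (SE 0.08, adjusted p = 0.0549) and did not pass.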

How the data were processed

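Hearts of 12 mice, 6 WT and 6 KI, were sequenced from stranded messenger RNA libraries, per the labels' protocols. The submitters' processing notes name cutadapt 2.5 and STAR 2.7.2b. The authors deposited expected counts, not normalized. They were made with featureCounts 1.6.4 on GRCm38.p6 over whole gene spans, introns included, on the reverse strand, per the file headers. Reads that align or overlap more than once were split as fractions, and between 42.4% and 47.5% of a library's nonzero values are not whole numbers. The deposited length column equals the gene span.

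Counts were rounded to 0 decimals. Genes passing filterByExpr (minimum count 10, minimum total 15) were tested with the quasi-likelihood test of edgeR 4.0.16 (R 4.3.3) with TMM scaling and no covariate, KI against WT, with p adjusted by Benjamini-Hochberg over all 15602 genes and a threshold of 0.05. Standard errors were taken from the F statistic and 95% intervals from its degrees of freedom. CPM are TMM-scaled, and a prior count of 2 served for log2 CPM. DESeq2 1.42.0, limma voom 3.58.1, sva 3.50.0, other scalings and filters, and left-out libraries were the alternatives. Exon lengths came from GENCODE vM21, matched by Gene ID.

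The members, the gene lists and the tests were chosen with earlier results of these data known. Values in each sample are given for the called gene and the 7 others with the smallest adjusted p, and of the transport list the called genes are named. Tmem33, Kpnb1, Nupl1 and Rangap1 were chosen after their values were seen. The labels name no pairing of WT with KI samples, and same-numbered samples did not deviate together (correlations of -0.28 to 0.04). Such correlations cannot exclude a weak pairing.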

Additional observations from a re-analysis of the deposited data

Results flagged for a closer look

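Of 56 sets of 6 values (28 genes in WT and in KI), 4 held a heart that stood apart from the others, with a gap to its nearest neighbour large relative to the whole range by Dixon's 95% criterion. Chance flags about 5% of such sets, so 4 is not many. Ndc1 in WT 6 was low, at 14.9 CPM beside 17.1 in the next heart. Nup153 in WT 5 was high, at 36.7 CPM beside 34.3. Nup210 in WT 4 was high, at 7.20 CPM beside 4.27, and without that heart its log2 fold change was 0.17. Nup54 in KI 6 was low, at 9.67 CPM beside 11.3.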

How the results depend on the processing

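The call on Nup93 held with other size factors (RLE), library totals, a filter of CPM above 1 in 6 libraries, DESeq2, voom, 1 surrogate variable, unrounded counts and no mitochondrial genes; the last pair were chosen after seeing the data. It was lost with no filter, with the replicate block, without KI 3 to KI 5 and with only these. Without KI 3 to KI 5, and with only these, fewer samples were compared. The cause of the lost calls was not tested. Pore genes called higher numbered 8 with library totals, 2 in voom, and 0 with no filter, the block or without KI 3 to KI 5. Pore genes called lower numbered 1 with the CPM filter, DESeq2, voom and the surrogate variable, and 2 with only KI 3 to KI 5. Transport genes called higher numbered 11 with library totals, 2 with the surrogate variable, and 0 with no filter, the block or without KI 3 to KI 5. Those called lower numbered 0 with library totals, the block or without KI 3 to KI 5, 1 with no filter or without mitochondrial genes, 7 in voom and 8 with only KI 3 to KI 5. Over all genes, 2957 were called higher and 191 lower with library totals, 220 and 212 with the replicate block, and 68 and 22 without KI 3 to KI 5. Genes called lower numbered 1067 in DESeq2, 1265 in voom and 1195 with only KI 3 to KI 5. With 1 library left out, calls ranged from 390 to 714 higher and 338 to 833 lower over all genes, 0 to 2 and 0 to 1 among pore genes, and 0 to 1 and 0 to 3 among transport genes. The labels name no pairing by replicate number, and why calls were lost under the block was not tested.

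The log2 fold change turned sign for genes not called by edgeR over all 12 hearts. With the surrogate variable it was -0.0061 for Pom121. With the CPM filter it was 0.0080 for Nup85. In DESeq2 it was -0.0023 for Pom121. Without KI 3 to KI 5 it was 0.020 for Ndc1, 0.0081 for Nup153, 0.076 for Nup160, 0.034 for Nup43, -0.0098 for Nup54, 0.038 for Nup85, -0.059 for Pom121 and -0.024 for Rae1. With RLE it was -0.0024 for Pom121. With library totals it was 0.045 for Ndc1, 0.12 for Nup153, 0.11 for Nup160, 0.12 for Nup210, 0.11 for Nup37, 0.088 for Nup43, 0.14 for Nup85 and 0.060 for Seh1l. With no filter it was -0.0071 for Pom121. With only KI 3 to KI 5 it was -0.073 for Nup188, -0.021 for Nup214, -0.096 for Nup98, -0.036 for Sec13 and -0.055 for Tpr. With the replicate block it was 0.022 for Nup210 and 0.00018 for Nup85. In voom it was 0.096 for Nup210, 0.0057 for Nup85, -0.034 for Nup98 and -0.0076 for Tpr. With 1 library left out it ran from -0.10 to 0.17 for Nup210, -0.071 to 0.0085 for Nup37, -0.019 to 0.052 for Nup54, -0.029 to 0.030 for Nup85, -0.027 to 0.046 for Nup98, -0.043 to 0.036 for Pom121 and -0.015 to 0.044 for Tpr.

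Of 28 pore genes, 12 kept their sign in every setting. Depth limits Nup62cl, with 1 to 6 counts, and reads shared with a neighbour limit Nup62 and Nup210l.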
